A study of Mus musculus with 6 samples.

Results

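The clustered protocadherins are cell-surface adhesion proteins of the cadherin superfamily whose genes stand in 3 neighbouring arrays, alpha, beta and gamma, on mouse chromosome 18. Members were all rows of the count tables whose symbol starts with Pcdha, Pcdhb or Pcdhg followed by a digit, a, b or c. The rule gave 59 of 32531 gene rows, with 16 in the alpha, 21 in the beta and 22 in the gamma cluster. It used no measured value.

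Translating ribosome affinity purification (TRAP) was carried out on thalamus dissected from adult, untreated control mice of the line Slc17a6-EGFP/Rpl10a (JX883). In TRAP, the ribosomal protein Rpl10a is fused to EGFP and expressed in chosen cells, here in a line named for Slc17a6, the vesicular glutamate transporter VGLUT2 of thalamic projection neurons. Tagged polysomes are pulled from the homogenate with anti-EGFP antibodies. The series held 3 libraries of purified RNA (IP) and 3 Input libraries of the thalamus, numbered as replicates 1 to 3 in each group. All 6 came from the same line and carried the same tag, so the comparison is of the RNA fraction and not of a genotype. For Input, too, the labels name ribosome-bound RNA as the molecule. Nothing in the labels says whether replicates are separate animals, and p-values here measure only the spread among 6 libraries, part of which may be technical.

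As background, each alpha and gamma isoform is read from its own promoter and variable first exon, which is spliced to constant exons shared by its cluster, whereas beta genes have a single coding exon of their own. A neuron switches on a small, largely random set of the alpha, beta and gamma isoforms. The C-type isoforms at the ends of the alpha and gamma arrays are expressed more evenly. The proteins form zippers between membranes of cells with matching sets, which underlies self-avoidance of dendrites, axon tiling and neuron survival. Choice of promoter depends on DNA looping by CTCF and cohesin and on DNA methylation.

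Gene reads per library ranged from 44081149 to 54421395, so that 3 reads correspond to between 0.055 and 0.068 CPM (reads of a gene scaled by the library total). Marker lists of several other cell types were lower in sum in IP. The 8 oligodendrocyte markers summed to between 182 and 315 CPM in IP and between 3724 and 5448 in Input, and the 8 astrocyte markers to between 49.9 and 59.2 against between 401 and 716. The 9 GABAergic markers summed to between 107 and 268 CPM in IP and between 856 and 1456 in Input. Cortical and hippocampal markers were not lower in sum, at between 444 and 620 CPM in IP and between 319 and 586 in Input. Prox1 and Slc17a7 made up most of the IP sum, at 340 and 244 CPM in IP replicate 1. Of the 8 tested, 6 had negative log2 fold changes of IP minus Input and 2 positive, with a median of -0.62. In replicate 3 the sum was lower in IP, at 482.5 against 585.6 CPM. The 10 thalamic glutamatergic markers summed to between 6778 and 11000 CPM in IP and between 2392 and 7080 in Input, with Slc17a6 itself higher in IP in each of the 3 replicate pairs. The groups overlapped for Slc17a6, and the main edgeR test did not call it (adjusted p 0.206). With the replicate number as a block, edgeR did (adjusted p 0.00025). The main test called 4 of these 10 markers higher and 0 lower. Replicate 1 differed from the others in the animals it held, since the Y-linked gene Ddx3y had 0 reads in Input replicate 1 and 1 in IP replicate 1 but between 515 and 953 in the other 4 libraries. Xist, an RNA of female cells, stood at 21.5, 22.7 and 50.8 CPM in Input replicates 1, 2 and 3 and at 0.93, 0.47 and 1.64 in IP. Replicates 2 and 3 thus held both Xist and Y-linked reads. Input replicate 3 stood apart by its choroid plexus and ependymal markers, which summed to 1220 CPM against 43.6 and 45.6 in Input replicates 1 and 2, and in IP to 4.66, 5.87 and 46.2 in replicates 1, 2 and 3.

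The main result is that the clustered protocadherins were detected in both fractions, and none was called higher or lower in IP. Of 59 members, 53 passed the filter on low counts. edgeR's quasi-likelihood test called 0 of them at an adjusted p under 0.05, whereas it called 25.2% of all 16496 genes tested (9.6% higher and 15.6% lower) and 22.1% of the 9330 tested genes within the members' range of mean CPM. The counts were 0 of 11 alpha, 0 of 20 beta and 0 of 22 gamma members. At an unadjusted p under 0.05, 3 members were lower and 0 higher, beside 38.2% of all tested genes (22% lower). DESeq2 called 2 members lower, beside 32.5% of all genes to which it gave an adjusted p, in either direction. The limma-voom fit called 0, beside 27% of all genes. The fit with the replicate number as a block called 1 lower, beside 35.1% of all tested genes (19.2% lower). A p that misses the threshold does not show that the levels were alike. The intervals below come from the fit without the block and give only what that fit allows. With the block the SE was smaller for some members (Pcdhac2, 0.22 against 0.34) and larger for others (Pcdha8, 1.24 against 0.85).

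The log2 fold changes of IP minus Input ran from -1.32 to 0.96 over the 53 tested members. Of these, 20 were positive and 33 negative, with a median of -0.32 beside -0.04 over all genes tested. The median was 0.41 in the alpha cluster (9 of 11 positive), -0.40 in the beta cluster (13 of 20 negative) and -0.44 in the gamma cluster (18 of 22 negative). These splits moved with the libraries and the fit. With the replicate block 25 members were positive and 28 negative, with a median of -0.06. Without Input replicate 1, 32 were positive and 21 negative, with a median of 0.48. Without both libraries of replicate 1, 28 were positive and 25 negative, with a median of 0.13. Without Input replicate 3, 8 were positive and 45 negative, with a median of -0.46. In bulk RNA of this kind, fewer cells that express a gene and less of its RNA per cell cannot be told apart.

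**Figure D1:**
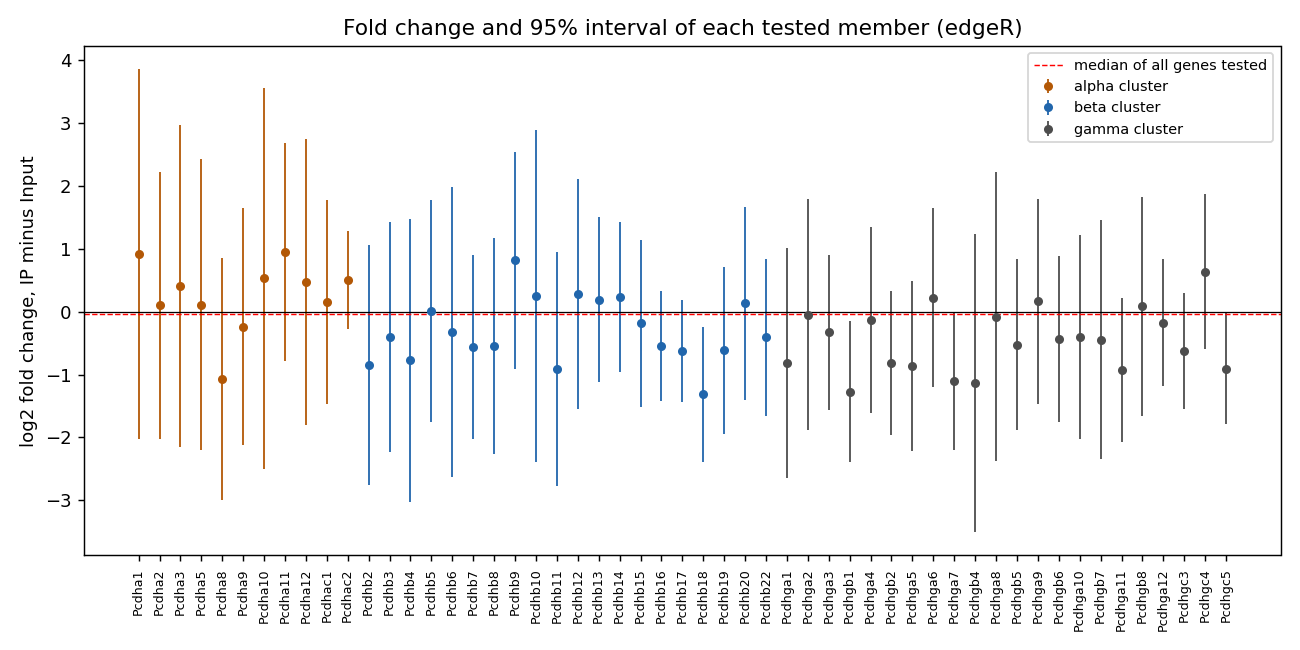
Log2 fold change of IP minus Input (vertical axis) of each of the 53 tested members, in chromosomal order within the alpha, beta and gamma clusters, with bars for the 95% interval from edgeR and a dashed line at the median of all genes tested (-0.04). Of the 53 intervals, 50 include 0, and none lies wholly within 1 log2 unit of 0.

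The intervals were wide but bounded on one side. The 95% interval of the log2 fold change included 0 for 50 of 53 members and lay within 2 log2 units of 0 for 24, but within 1 unit for 0. It reached less than 1 log2 unit to each side of the estimate for 5 members, beside 60.1% of all genes tested. For 52 members the whole interval lay above -3.16, the log2 fold change of Cnp, the oligodendrocyte marker that fell least. The fall seen for myelin genes, up to -4.88 on the log2 scale, is thus outside the interval of nearly every member. This holds for myelin genes only. The smallest log2 fall was -0.87 among the GABAergic and -1.635 among the astrocyte markers. Falls of that size lie inside member intervals such as that of Pcdhga8, from -2.38 to 2.23. No interval leaves out both a fall and a rise of 1 log2 unit, though some leave out 1 of these. That of Pcdhb17 ran from -1.44 to 0.19 and that of Pcdhac2 from -0.27 to 1.28. The median standard error was 0.71 for members, 0.51 for genes in the same range of CPM and 0.36 for all genes tested. The spread within a group was also larger for members than for other genes. The median coefficient of variation over the 3 Input libraries was 0.73 for members and 0.36 for genes in their CPM range, and over the 3 IP libraries 0.41 and 0.33.

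Summed over a cluster, levels of the groups overlapped in all 3 clusters. The alpha members summed to 54.0, 27.4 and 17.6 CPM in Input replicates 1, 2 and 3 and to 61.8, 36.7 and 35.9 CPM in IP. The beta members summed to 178, 74.4 and 85.1 CPM in Input and 129, 66.0 and 72.7 in IP. The gamma members summed to 210, 102 and 98.0 CPM in Input and 124, 80.2 and 94.6 in IP. In each cluster and each group, replicate 1 was the highest library. The alpha sum was higher in IP in all 3 replicate pairs, and the beta and gamma sums were lower in all 3. For alpha and gamma this depended on the C-type isoforms. Without them the alpha sum of replicate 2 was lower in IP, at 11.1 against 11.7 CPM. The gamma sum of replicate 3 without them was slightly higher in IP, at 49.8 against 49.5 CPM. The means were 44.8 ± 14.7 CPM in IP and 33.0 ± 18.8 in Input for alpha, 89.1 ± 34.4 and 112 ± 56.9 for beta, and 99.4 ± 22.1 and 137 ± 63.5 for gamma (SD, n = 3). The ratio of the IP to the Input mean was 1.36 for alpha, 0.793 for beta and 0.728 for gamma, and 1.10, 0.707 and 0.637 without Input replicate 3. Without Input replicate 1 it was 1.99 for alpha, 1.12 for beta and 0.994 for gamma, but that mean keeps IP replicate 1, the highest IP library. Without IP replicate 1 instead it was 1.10, 0.617 and 0.639. The ratio of means thus moves with which library of replicate 1 is left out, whereas the directions within pairs do not depend on this.

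**Figure D2:**
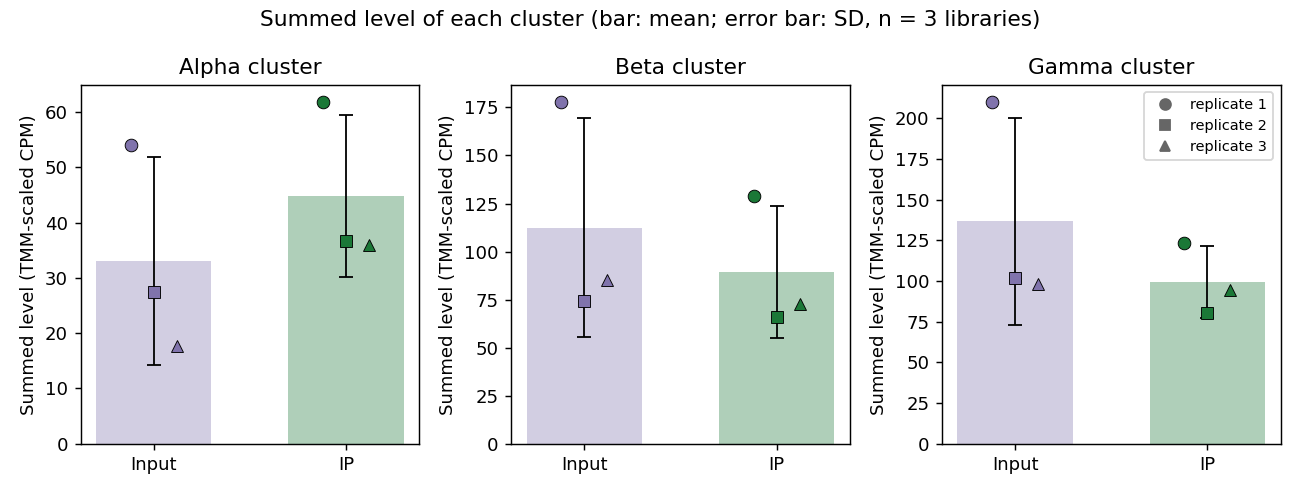
Summed TMM-scaled CPM (vertical axis, from 0) of the alpha, beta and gamma clusters in Input and IP, with bars at the mean, error bars of 1 SD (n = 3 libraries) and a marker for each replicate. Replicate 1 is the highest point in each of the 6 groups of points, and the ranges of IP and Input overlap in every cluster.

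The alpha cluster spans bases 36930285 to 37188897 of chromosome 18 (mm10). Its most abundant member was Pcdhac2, a C-type isoform known as the main alpha isoform of serotonergic neurons, where it serves axon tiling. Pcdhac2 stood at 30.9, 15.0 and 14.7 CPM in Input replicates 1, 2 and 3 and at 37.2, 24.9 and 24.2 CPM in IP. IP was higher in each pair, but the groups overlapped, since Input replicate 1 was above IP replicates 2 and 3. The log2 fold change was 0.51 ± 0.34 (SE), with a 95% interval from -0.27 to 1.28 and an edgeR adjusted p of 0.314. With the replicate block it was 0.57 ± 0.22 (SE), with an edgeR adjusted p of 0.063. Without Input replicate 1 it was 0.96, with an edgeR adjusted p of 0.0483. That fit keeps IP replicate 1, the highest library for Pcdhac2, and with both libraries of replicate 1 left out 0 members were called. The 7 serotonergic and monoaminergic markers were lower in sum in IP, at between 12.6 and 22.1 CPM against between 35.4 and 51.7 in Input. Of the defining serotonergic genes, the enzyme Tph2 had 0, 17 and 46 reads in Input replicates 1, 2 and 3 and 0, 0 and 3 in IP. The transporter Slc6a4 had 11 reads in Input replicate 3 and 0 in all other libraries. The factor Fev had between 0 and 17 reads in Input and between 10 and 27 in IP. Their part in the Pcdhac2 level was not tested. Pcdhac1, the other alpha C-type isoform, was low, at 2.35, 0.72 and 1.20 CPM in Input and 1.97, 0.75 and 2.04 in IP.

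The remaining alpha isoforms were low in every library, and 5 of the 9 tested were below a ratio of 0.1 in Input replicate 3 to the other Input libraries. The 3 with the highest mean were Pcdha12, Pcdha5 and Pcdha3. Pcdha12 stood at 3.87, 2.72 and 0.091 CPM in Input and 5.25, 1.96 and 2.12 in IP. Pcdha5 stood at 3.70, 2.52 and 0.091 CPM in Input and 3.97, 1.41 and 1.45 in IP. Pcdha3 stood at 3.44, 1.64 and 0.023 CPM in Input, the last from 1 read, and at 3.45, 1.47 and 1.88 in IP. For all 3, Input replicates 1 and 2 lay within the range of IP and Input replicate 3 lay far below it. Their log2 fold changes were 0.48 ± 1.0, 0.12 ± 1.02 and 0.41 ± 1.13 (SE), and all 3 turned negative without Input replicate 3, at -0.07, -0.44 and -0.15. Pcdha1 and Pcdha10 had 0 reads in Input replicate 3, which allows up to 0.068 CPM there.

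The 9 tested alpha isoforms other than the C-type summed to 20.6, 11.6 and 1.73 CPM in Input and 22.7, 11.04 and 9.62 in IP. Input replicates 1 and 2 thus stood beside IP replicates 1 and 2, and Input replicate 3 was well below IP replicate 3. Pcdhac2 made up 83.4% of the alpha reads in Input replicate 3 and between 54.8% and 67.8% in the other libraries.

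The beta cluster spans bases 37264998 to 37521419. Its leading members by mean CPM were Pcdhb16, Pcdhb17, Pcdhb22 and Pcdhb14, which like all beta proteins lack the shared cytoplasmic end of the alpha and gamma proteins. Pcdhb16 stood at 32.2, 14.4 and 13.8 CPM in Input and 17.2, 9.82 and 14.2 in IP, and differed by -0.55 ± 0.39 on the log2 scale (SE, edgeR adjusted p = 0.334). Pcdhb17 stood at 19.8, 10.6 and 20.4 CPM in Input and 15.2, 8.01 and 9.69 in IP. It was lower in IP in each pair, with overlapping groups, and differed by -0.62 ± 0.36 on the log2 scale (SE, edgeR adjusted p = 0.238). Pcdhb22 stood at 16.3, 4.11 and 5.20 CPM in Input and 7.28, 7.82 and 4.29 in IP, and Pcdhb14 at 9.85, 4.73 and 2.54 in Input and 8.50, 4.55 and 7.10 in IP. The pairs of both went in different directions.

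Pcdhb18, singled out after its values were seen, had the smallest adjusted p of any member. It stood at 11.05, 5.26 and 5.45 CPM in Input and at 3.73, 1.84 and 3.16 in IP. Every IP library was below every Input library. Its log2 fold change was -1.32 ± 0.48 (SE), with a 95% interval from -2.40 to -0.24 and an edgeR adjusted p of 0.0754. With the replicate block it was -1.29, with an edgeR adjusted p of 0.0364, and DESeq2 gave an adjusted p of 0.0214. Over the leave-out fits its edgeR adjusted p ran from 0.0562 to 0.274.

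The rest of the beta cluster varied from library to library. Pcdhb9 stood at 7.26, 1.72 and 0.727 CPM in Input and 7.60, 5.61 and 3.97 in IP. It was higher in IP in each pair, with an edgeR adjusted p of 0.472, and of 0.0416 without Input replicate 1. With the replicate block its log2 fold change was 1.39, with an edgeR adjusted p of 0.075. With both libraries of replicate 1 left out it was not called. Pcdhb10 had 6.94, 1.70 and 0.023 CPM in Input, whereas IP held 4.32, 2.71 and 3.24. Pcdhb8 went the other way, at 2.22, 1.47 and 9.45 CPM in Input and 4.97, 1.66 and 2.35 in IP. Input replicate 3 was thus the lowest library for Pcdhb10 and the highest for Pcdhb8.

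The gamma cluster spans bases 37661775 to 37841873 and holds the A, B and C isoforms. The C-type members Pcdhgc3, Pcdhgc4 and Pcdhgc5 made up between 38.6% and 49.5% of the gamma reads of a library. Pcdhgc3, which is known to promote dendrite branching, stood at 52.3, 24.6 and 17.0 CPM in Input and 23.5, 14.5 and 22.6 in IP. The groups overlapped, and the third pair went the other way from the first 2 pairs. Its log2 fold change was -0.63 ± 0.41 (SE), with an edgeR adjusted p of 0.292.

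Pcdhgc4, known to be required for survival of cortical interneurons, was the gamma member with the highest log2 fold change. It stood at 14.5, 5.85 and 3.09 CPM in Input and 15.2, 7.84 and 13.5 in IP. IP was higher in each pair, by a log2 ratio of 0.07, 0.42 and 2.12 in replicates 1, 2 and 3, so most of the difference lay in replicate 3. The log2 fold change was 0.64 ± 0.54 (SE), with an edgeR adjusted p of 0.430.

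Pcdhgc5, an isoform known to be expressed late in the maturing brain, went in the opposite direction. It stood at 16.5, 9.99 and 28.5 CPM in Input and 12.1, 8.58 and 8.64 in IP. The groups overlapped only because IP replicate 1 was above Input replicate 2. The log2 fold change was -0.91 ± 0.39 (SE), with a 95% interval from -1.79 to -0.02 and an edgeR adjusted p of 0.124. Input replicate 3 held 2.15 times the mean Pcdhgc5 level of Input replicates 1 and 2, whereas the same ratio was 0.441 for Pcdhgc3 and 0.303 for Pcdhgc4. Input replicate 3 was also high in cortical and hippocampal markers, whose median ratio to the other Input libraries was 9.92 over the 8 tested, and their part in the Pcdhgc5 level was not tested.

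Among the gamma A and B isoforms, 16 of 19 log2 fold changes were negative, with medians of -0.25 for the 12 A and -0.52 for the 7 B isoforms. Pcdhga12, the gamma A isoform with the highest mean CPM, stood at 12.9, 8.80 and 4.09 CPM in Input and 8.68, 8.63 and 5.52 in IP, with no common direction of the pairs. Pcdhgb1, singled out after its values were seen, stood at 8.02, 3.75 and 3.75 CPM in Input and 2.56, 2.26 and 1.62 in IP. Every IP library was below every Input library. Its log2 fold change was -1.27 ± 0.49 (SE), with an edgeR adjusted p of 0.0945, a blocked edgeR adjusted p of 0.083 and a DESeq2 adjusted p of 0.0345.

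**Figure D3:**
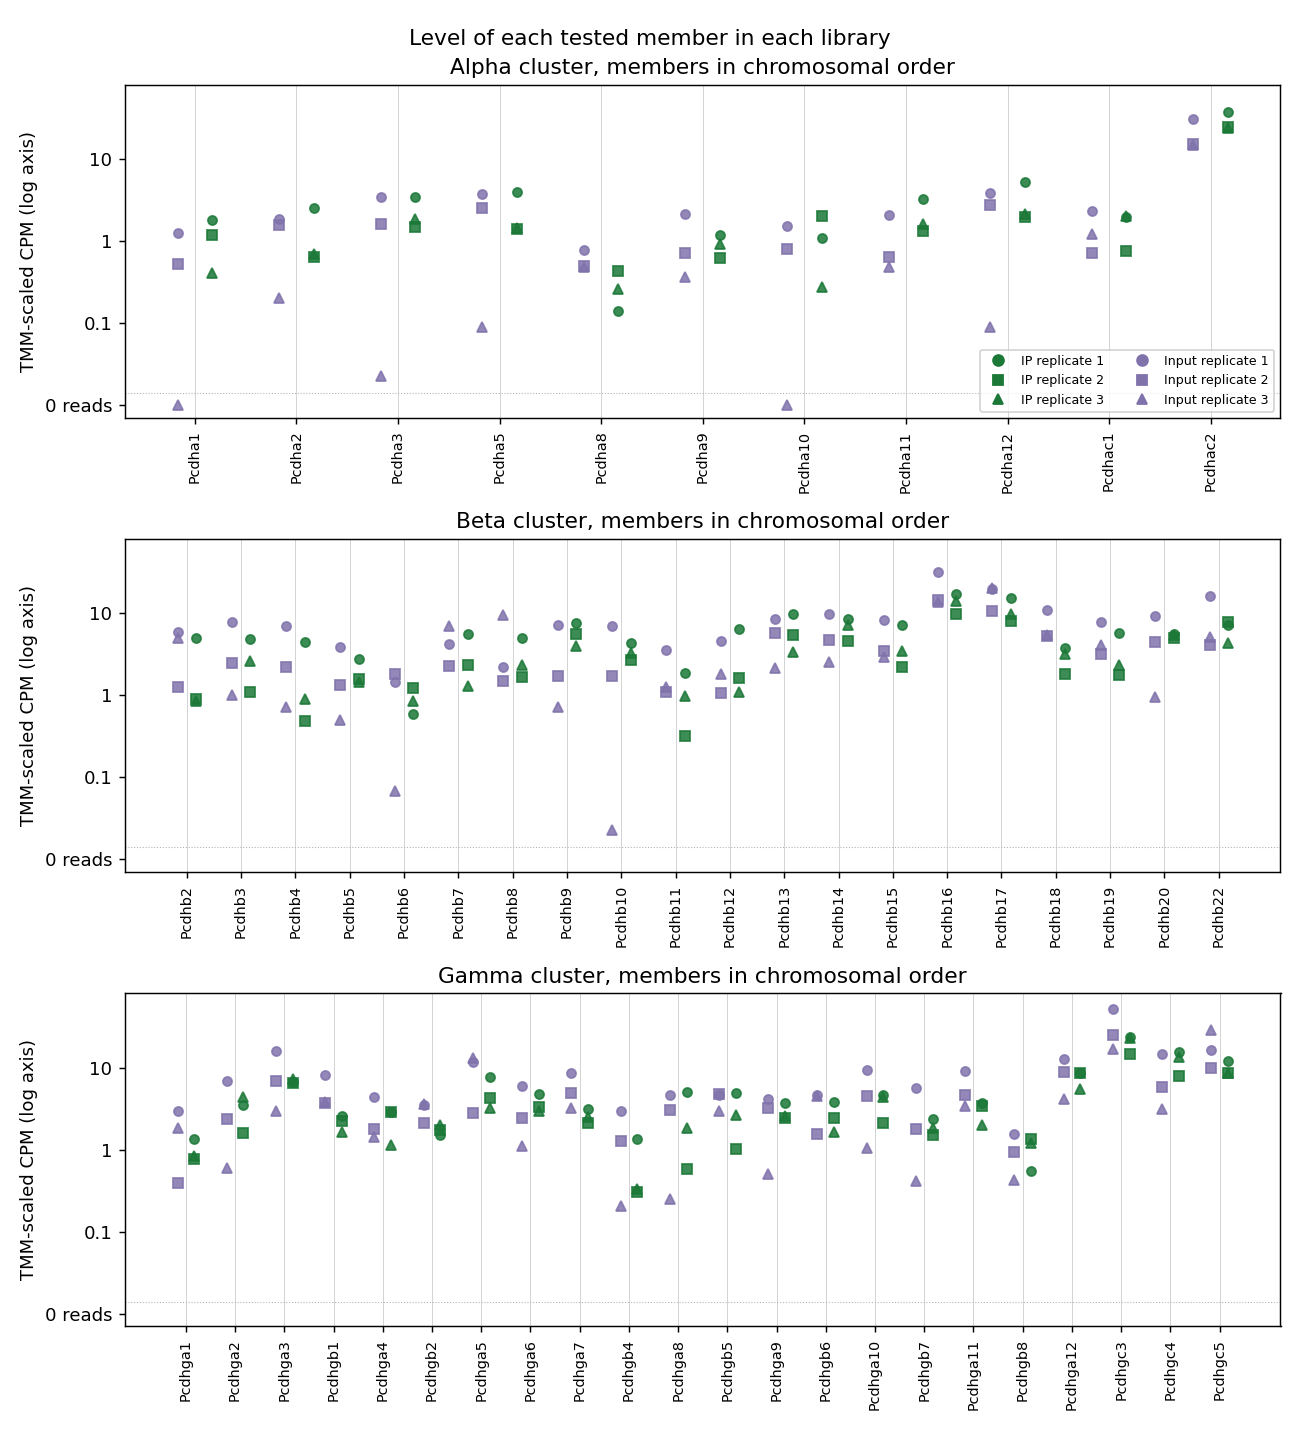
TMM-scaled CPM (vertical log axis, with 0 reads drawn below the dotted line) of each of the 53 tested members in the 3 Input (purple) and 3 IP (green) libraries, with members in chromosomal order and 1 marker shape per replicate. Input replicate 3 (purple triangles) lies far below the other libraries for most alpha isoforms, while Pcdhac2, Pcdhb16 and Pcdhgc3 are high in all 6 libraries.

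Over all tested members, the groups did not overlap for 5, beside 44.9% of all genes tested. All 5 were lower in IP (25% of all genes) and 0 were higher (19.9% of all genes). They were Pcdha8, Pcdhb18, Pcdhga7, Pcdhgb1 and Pcdhgb2. IP was higher in all 3 replicate pairs for 5 members (30.3% of all genes), namely Pcdha1, Pcdha11, Pcdhac2, Pcdhb9 and Pcdhgc4. It was lower in all 3 pairs for 11 (33.9% of all genes). Each of these shares of members is below that of all genes tested, as is the share called.

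The members also differed between replicates of 1 fraction. Of the 53 tested members, 45 were highest in replicate 1 among the Input libraries and 43 among the IP libraries, whereas replicate 1 was the highest for 29.5% and 35.7% of the tested genes in the same CPM range. The median member was 2.67 times as high in Input replicate 1 as the mean of Input replicates 2 and 3, and 1.51 times in IP. Over all tested genes those medians were 0.986 and 0.973. The 10 thalamic glutamatergic markers as a list had medians of 1.24 in Input and 0.829 in IP, with Slc17a6 itself at 4.66 and 2.96. The share of records counted as ambiguous was highest in replicate 1 in Input (13.2%, against 7.43% and 7.37%) but lowest in replicate 1 in IP (1.53%, against 1.92% in both others). The Y-linked reads set replicate 1 apart in both fractions. Replicate numbers coincide with the sequencing lanes, so the makeup of the animals and the lane cannot be told apart, and their part in the high levels was not tested.

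Input replicate 3 was the lowest Input library for 37 of 53 members, against 41.1% of the genes in their CPM range. The median ratio of Input replicate 3 to the mean of Input replicates 1 and 2 was 0.353 over members and 0.967 over all tested genes. It was 0.029 for the 9 alpha isoforms other than the C-type, 0.504 for beta, 0.32 for gamma A, 0.636 for gamma B and 0.640 for the C-type. In all, 9 members, 5 of them alpha isoforms, were below a ratio of 0.1, beside 4.31% of the genes in the same CPM range. The same ratio in IP replicate 3 had a median of 0.587 for these alpha isoforms and 0.763 for all members. Thalamic glutamatergic markers had a median ratio of 0.528, GABAergic markers of 1.6 and choroid plexus and ependymal markers of 4.1 over the 7 tested in Input replicate 3, and the part of these cells in the low isoforms was not tested.

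**Figure D4:**
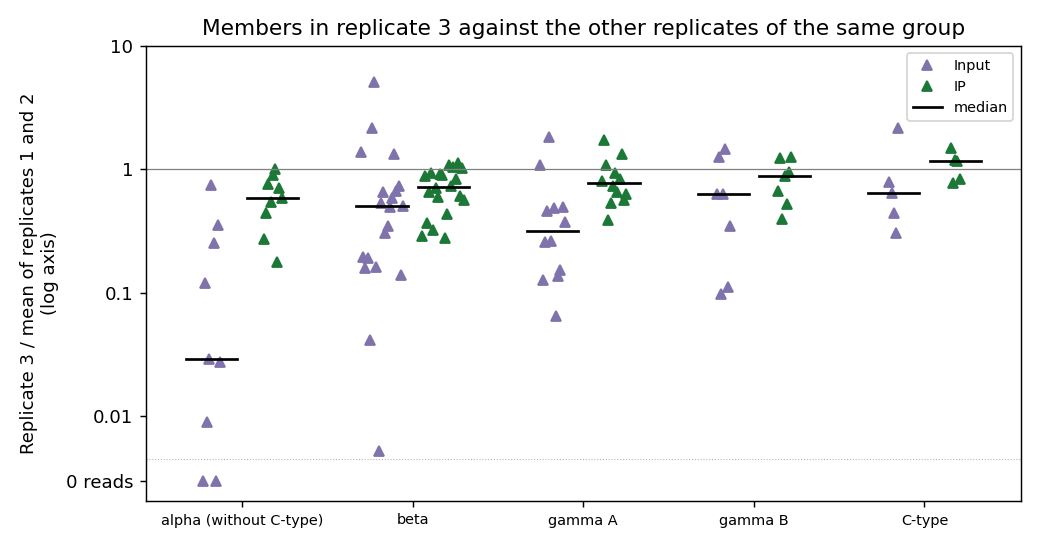
Ratio of replicate 3 to the mean of replicates 1 and 2 of the same group (vertical log axis, with 0 reads drawn below the dotted line) for each tested member, by class of isoform, in Input (purple) and IP (green), with a bar at the median. The Input median is 0.029 for the alpha isoforms without the C-type and lies between 0.32 and 0.64 in the other classes.

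The rank order of the members varied between libraries. The Spearman correlation of CPM over the 53 members, given as a description since the points share a library, was between 0.731 and 0.794 among IP libraries and 0.875 between Input replicates 1 and 2. Input replicate 3 correlated with the other Input libraries at 0.692 and 0.588. Pairs of libraries from different fractions ran from 0.548 to 0.845. Over the genes in the members' CPM range, the correlation among IP libraries was between 0.921 and 0.938. Over the same genes it was 0.931 between Input replicates 1 and 2, and 0.786 and 0.828 between Input replicate 3 and these, so Input replicate 3 stood apart there too.

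Within a cluster, position was set beside level and beside the difference between fractions. The Spearman correlation of chromosomal order with mean CPM, again a description, was 0.714 over 20 beta members, 0.482 over 11 alpha members and 0.390 over 22 gamma members. That of order with log2 fold change was 0.03, 0.21 and 0.13. In the beta cluster the members at the far end, from Pcdhb13 on, included all 4 of the highest mean CPM. These CPM are not scaled by exon length. Per kilobase of exon, Pcdhb16 and Pcdhb17 were still the highest beta members, at 3.24 and 2.99 CPM. Pcdhb14 and Pcdhb22 stood at 0.71 and 1.14, below Pcdhb9 at 1.47.

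Levels between genes were compared per kilobase of exon not shared with another member. On this scale Pcdhac2 and Pcdhgc3 were the highest, with means over the 6 libraries of 8.09 and 7.62 CPM per kilobase. They were followed by Pcdhb16 at 3.24, Pcdhb17 at 2.99, Pcdhga3 at 2.94, Pcdhgc4 at 2.88, Pcdhga5 at 2.81 and Pcdhgc5 at 2.55 CPM per kilobase. Neighbours from Pcdhb16 down differ by less than the spread between libraries. For 15 of the 55 members with a length, some of these bases also lie in a gene that is no member. Per kilobase shared with no other annotated gene, Pcdhgc3 was at 14.1 and Pcdhac2 at 8.09, so their order turns with the length used. The value of Pcdhga11 went from 1.66 to 3.48 and that of Pcdhb12 from 0.907 to 2.49 CPM per kilobase, and Pcdhga10 had no such base. In the annotation, between 48.6% and 54.9% of an alpha member's exon bases and between 27.8% and 66.8% of a gamma member's are shared with other members, and 0% of a beta member's. Reads in shared exons may have been counted as ambiguous, and how far alpha and gamma levels rest on the variable exons alone was not tested. Pcdha10 and Pcdha11 are left out of this scale because the annotation uses the second name for 2 genes.

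The 6 members that did not pass the filter were Pcdha4, Pcdha6, Pcdha7, Pcdha6-g, Pcdha7-g and Pcdhb1. The first 4 had 0 reads in every library. Pcdha7-g, a gene model that RefSeq runs from the alpha cluster through to the last gamma base, had 3 IP and 5 Input reads in all. RefSeq has models of the same kind for Pcdha4 and Pcdha6, and the part of overlapping models in the counts of 0 was not tested. Pcdhb1, whose exon is shared with no other member, had 3, 1 and 0 reads in Input and 0 in IP.

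Regulators of promoter choice include CTCF, cohesin and its loaders, and the enzymes that set or remove DNA methylation. Of 21 tested, 0 were called higher and 7 lower by edgeR, beside 9.6% and 15.6% of all genes tested, with a median log2 fold change of -0.44. The 3 largest falls were of the TET enzymes, which oxidise methylated cytosine. Tet2 stood at 131, 123 and 146 CPM in Input and 56.1, 25.9 and 34.8 in IP. Its log2 fold change was -1.78 ± 0.28 (SE), with an edgeR adjusted p of 0.0035. Tet1 and Tet3 had log2 fold changes of -1.63 and -1.41. Also lower were Esco1, a cohesin acetyltransferase, Dnmt3a, a de novo DNA methyltransferase, Nipbl, the cohesin loader, and Smc3, a cohesin subunit. The call of Smc3 was lost in each of the 9 fits that left out a library or replicate. Ctcf, which binds the isoform promoters, was at 84.2, 84.1 and 81.5 CPM in Input and 82.8, 109 and 109 in IP and was not called (log2 fold change 0.27 ± 0.18, SE).

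Of 23 proteins that act with protocadherins at the membrane, 3 were called higher and 4 lower by edgeR. Over all genes tested the shares were 9.6% and 15.6%, near those of this list. Wasf3, Fyn and Rac1 were higher by log2 fold changes of 0.76, 0.67 and 0.64. Wasf2, Cyfip1, Axin1 and Ptk2 were lower by -1.71, -1.26, -0.96 and -0.82. Wasf2, Wasf3 and Cyfip1 belong to the WAVE complex, which drives actin branching and binds some protocadherins' cytoplasmic ends, and Ptk2 (FAK) is a kinase that alpha and gamma protocadherins restrain. Axin1 and Ptk2 passed in only 2 of the 9 leave-out fits and Rac1 in 3.

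Of 11 tested non-clustered protocadherins, single genes outside the arrays, 2 were called lower and 0 higher by edgeR, beside 15.6% and 9.6% of all genes tested. Pcdh15, known as a part of the hair-cell tip link, stood at 37.2, 32.4 and 37.8 CPM in Input and 5.96, 5.23 and 8.15 in IP. Its log2 fold change was -2.47 ± 0.26 (SE), with an edgeR adjusted p of 0.00052. Pcdh11x had a log2 fold change of -1.05 and passed in 4 of 9 leave-out fits. With the replicate block Pcdh18 was also called, as higher, with a log2 fold change of 0.85 without the block and an edgeR adjusted p of 0.039 with it.

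Genes that flank or lie among the arrays on chromosome 18 make up the last list. Of 13 tested, 5 were higher and 2 lower by edgeR, beside 9.6% and 15.6% of all genes tested. Ndufa2, a subunit of respiratory complex I, stood at 28.0, 49.0 and 61.2 CPM in Input and 152, 123 and 107 in IP. Its log2 fold change was 1.47 ± 0.29 (SE), with an edgeR adjusted p of 0.0091. Wdr55, Zmat2, Hars and Hdac3 were higher by 1.40, 1.08, 0.94 and 0.74 on the log2 scale, and the call of Hdac3 held in 1 of 9 leave-out fits. Hars2 was lower by -1.18 on the log2 scale and passed in 4 of 9 such fits, and Cd14, a receptor of microglia and macrophages, had 22, 14 and 55 reads in Input and 0 in every IP library. Whether the share called differs between neighbours and members was not tested.

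**Figure D5:**
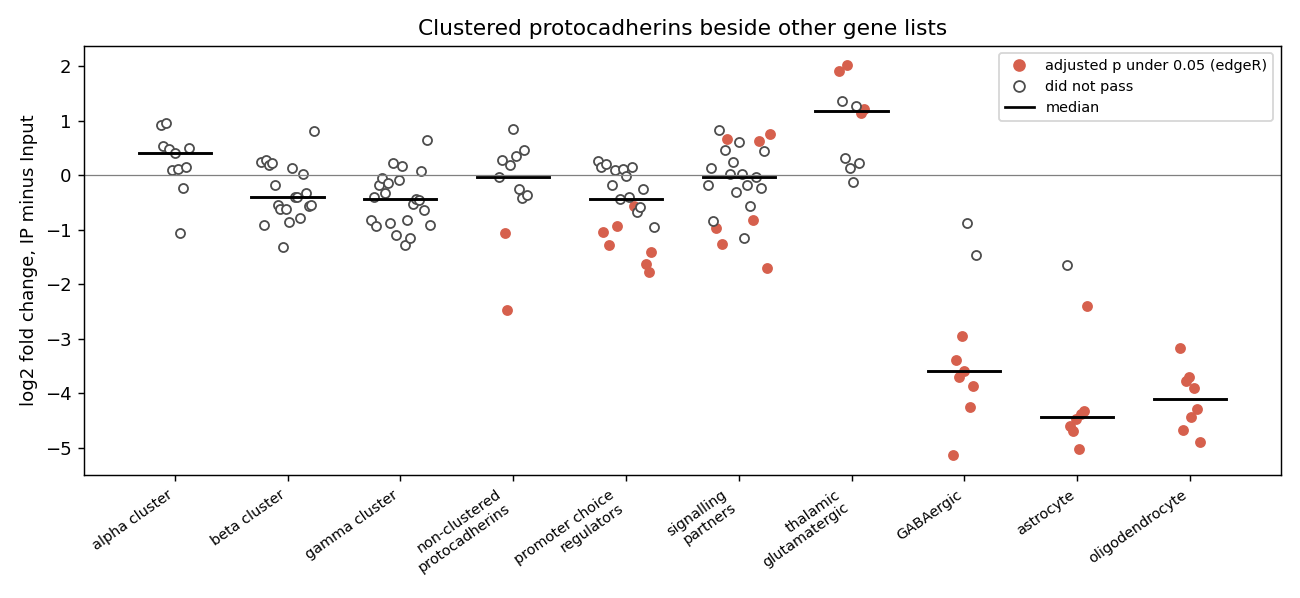
Log2 fold change of IP minus Input (vertical axis) of each tested gene in the 3 protocadherin clusters and 7 other lists, with filled points for an edgeR adjusted p under 0.05 and a bar at the median of each list. No point of the alpha, beta or gamma cluster is filled, while 8 of 8 oligodendrocyte markers and 7 of 21 regulators are.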

How the data were processed

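For each of the 6 libraries the authors deposited a table of raw read counts by gene. The submitters' processing notes name STAR 2.0.0e, the mm10 build and HTSeq. Not given in the sources used here are the annotation, the counting mode, the strand setting and the library kit. Ambiguous reads were 1.53% to 1.92% of records in IP and 7.37% to 13.2% in Input. Records without a unique alignment were 38.5% to 45.0% in IP and 23.6% to 27.2% in Input, and their part in the member levels was not tested. All 6 summary and unnamed rows of a table stayed out of library sizes and tests.

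Low counts were removed with filterByExpr by group. TMM factors and edgeR 4.0.16 (R 4.3.3) gave a two-sided quasi-likelihood test on group, adjusted by Benjamini-Hochberg over 16496 genes with a threshold of 0.05. It called 1583 genes as higher and 2566 as lower. CPM values are TMM-scaled. The script was tested on simulated data. Alternatives were other scalings and filters, DESeq2 1.42.0, limma-voom (limma 3.58.1), the replicate block, and leaving out libraries. Exon lengths came from GENCODE M21 and positions from RefSeq, both on GRCm38, the assembly of mm10. Plots were drawn with matplotlib 3.10.9. No 2 libraries of a group agreed within sampling noise.

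Across genes, deviations from the group mean correlated at 0.456, 0.215 and 0.246 between the IP and Input library of replicates 1, 2 and 3. The numbers come from the titles and were taken to pair the libraries on this basis. The labels state no paired test, so the fit without the block stayed the main one.

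Members and lists were chosen with earlier results of these data known. Named members were the 5 C-type isoforms and the 4 of highest mean CPM per cluster. From each other list up to 3 called genes in each direction by size of change were named, and any others were chosen after their values were seen.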

Additional observations from a re-analysis of the deposited data

How the results depend on the processing

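No scaling or filter alternative made or ended a call of a member. DESeq2 called 1 beta and 1 gamma member lower, and the replicate block 1 beta member lower, where the reported fit called 0. Over all genes, in either direction, DESeq2 called 32.5%, the block 35.1% and the reported fit 25.2%. Leaving out libraries or replicate numbers gave 0 to 1 alpha and 0 to 1 beta members called higher. Over all genes, the calls higher ran from 83 to 1640 and the calls lower from 651 to 2598 on leaving out a library or replicate, with the low ends where replicate 2 was left out, and the replicate block called 2624 higher. For the non-clustered protocadherins the block called 1 higher, and leave-outs 1 to 2 lower. Leave-outs called 2 to 7 regulators lower. Of the signalling partners, voom called 5 and the block 6 higher, and leave-outs 0 to 6 higher and 0 to 4 lower. Over all genes voom called 27% in either direction. Of the neighbours, leave-outs called 0 to 5 higher and 0 to 2 lower, and a filter of 1 CPM left 1 lower. The block changed no other call of a member than that of Pcdhb18. The log2 fold change of 29 of the 53 tested members changed sign over the 6 fits that left out 1 library. Among the members named by the rule, over all leave-outs, these were Pcdha3 (-0.15 to 1.45), Pcdha5 (-0.54 to 0.81), Pcdha12 (-0.12 to 1.14), Pcdhac1 (-0.16 to 0.73), Pcdhb14 (-0.15 to 0.89), Pcdhb22 (-0.90 to 0.48) and Pcdhga12 (-0.50 to 0.24). With library totals or upper quartile factors 18 members were positive and 35 negative, and with voom 25 and 28. The tested members held at least 125 reads each over the 6 libraries, and their median edgeR dispersion was 0.39, beside 0.20 for genes in the same CPM range.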
